A study of Rattus norvegicus with 6 samples.

Results

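The 10 genes described here encode E2F transcription factors (E2f1, E2f2, E2f3, E2f5, E2f6, E2f7 and E2f8), the E2F dimerization partner Tfdp2, the retinoblastoma protein Rb1 and the mitotic transcription factor Foxm1. They were found by gene symbol in a table of 43035 rows, and 6 further rows were added because they hold transcripts absent from the annotation that overlap E2f3, E2f5, E2f6, E2f7, E2f8 or Tfdp2 on the same strand, and these are called unannotated rows below. RNA-seq was performed on primary neonatal cardiomyocytes of Sprague-Dawley rats at postnatal day 1, collected 48 h after siRNA transfection. The siRNA targeted DYRK1A in 1 group, labelled si-DYRK1A, and was a scramble control in the other, labelled si-NC. DYRK1A is a dual-specificity kinase, and the comparison asks which transcripts differ after its knockdown. There were 3 libraries in each group, which the labels call biological replicates without naming animals or preparations, so p-values measure the spread between these libraries. All 6 cultures were kept in DMEM with 10% FBS and were enriched for cardiomyocytes by differential attachment, which can leave other cardiac cells.

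E2F factors bind DNA mostly as dimers with a DP protein such as the product of Tfdp2. E2F1, E2F2 and E2F3 activate genes of DNA replication until RB1, in its less phosphorylated form, binds them, and phosphorylation of RB1 by cyclin-dependent kinases releases them. E2F5 represses with other pocket proteins, E2F6 represses without pocket proteins, and E2F7 and E2F8 are atypical repressors that need no DP protein. FOXM1 activates genes of G2 and mitosis later in the cycle, and DYRK1A is known to phosphorylate LIN52 and so to favour assembly of the DREAM complex, which represses both groups of genes in quiescent cells. Cardiomyocytes leave the cell cycle soon after birth, and RB1 is known to help keep them out of it.

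Several E2F genes are themselves known targets of E2F factors, and therefore the RefSeq promoters of the members were searched for 2 forms of the E2F motif, TTCCCGC and TTGGCGC, on both strands. The RefSeq table (build GRCr8, not the Rnor_6.0 build of the count table) held 5 of the 10 genes, E2f3, E2f6, E2f7, Rb1 and Tfdp2. At least 1 of the 2 motifs lay within 250 bases upstream of the start of E2f3, E2f7 and Rb1, whose windows are shown here with each match in capitals.
E2f3, chr17:34810166-34810415, + strand: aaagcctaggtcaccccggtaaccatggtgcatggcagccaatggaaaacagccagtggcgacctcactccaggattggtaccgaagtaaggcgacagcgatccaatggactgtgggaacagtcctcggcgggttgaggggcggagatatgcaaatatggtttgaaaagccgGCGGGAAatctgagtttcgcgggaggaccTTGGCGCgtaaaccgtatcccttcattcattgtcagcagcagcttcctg
E2f7, chr7:48036653-48036902, + strand: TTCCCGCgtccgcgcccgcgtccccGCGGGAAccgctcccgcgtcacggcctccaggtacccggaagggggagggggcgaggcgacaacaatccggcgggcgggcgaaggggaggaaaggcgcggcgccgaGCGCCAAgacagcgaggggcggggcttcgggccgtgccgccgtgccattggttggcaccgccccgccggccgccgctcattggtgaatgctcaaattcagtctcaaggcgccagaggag
Rb1, chr15:54911858-54912107, - strand: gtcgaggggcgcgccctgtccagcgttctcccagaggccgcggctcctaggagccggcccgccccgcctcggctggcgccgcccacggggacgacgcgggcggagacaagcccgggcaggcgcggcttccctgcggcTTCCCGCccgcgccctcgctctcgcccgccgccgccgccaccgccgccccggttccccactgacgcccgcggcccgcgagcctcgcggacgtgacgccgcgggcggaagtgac
In E2f3, the reverse complement of TTCCCGC began at -78 from the start and TTGGCGC at -49. In E2f7, TTCCCGC began at -250, its reverse complement at -225 and the reverse complement of TTGGCGC at -119. Rb1 held TTCCCGC at -113. Neither motif was found in the windows of E2f6 and Tfdp2. Of all 33469 RefSeq promoters of this length, 3.36% held TTCCCGC, 1.78% held TTGGCGC and 5% held either. These matches describe the sequence only.

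The 6 libraries held 10325074 to 11921772 counts. Of the rows, 15513 passed the filter on low counts, and 2360 of them differed between groups at an adjusted p below 0.05 (edgeR quasi-likelihood test, Benjamini-Hochberg), which is 15.2% of those tested, with 8.03% higher and 7.19% lower in si-DYRK1A. Dyrk1a RNA did not check the labels. The study assessed the knockdown as DYRK1A protein by immunoblot 48 h after transfection, which these libraries do not measure. Its annotated row held 0 to 3 counts per library, and the unannotated row over the gene had a normalised level of 74.5, 77.7 and 80.9 CPM (counts divided by library size) in si-NC and 85.4, 80.1 and 81.7 in si-DYRK1A, with a log2 fold change of 0.08 (SE 0.058, adjusted p = 0.374). The groups are therefore the libraries labelled si-DYRK1A and si-NC. Of 9 cardiomyocyte markers found, 6 (Tnni3, Myh6, Myh7, Ryr2, Myl2 and Myl7) had at most 10 counts in every library, and each of these 6 was overlapped by an unannotated row on its strand.

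The first question for these genes is where their counts lie. E2f1, E2f2, Rb1 and Foxm1 were counted on their annotated rows and had no overlapping unannotated row. E2f1 (ENSRNOG00000016708) lies at chr3:150047826-150073721 on the - strand, E2f2 (ENSRNOG00000047741) at chr5:154522119-154540265 on the + strand, Rb1 (ENSRNOG00000016029) at chr15:55083140-55209342 on the - strand and Foxm1 (ENSRNOG00000005936) at chr4:161685258-161696305 on the + strand of Rnor_6.0. The annotated rows of E2f5 (ENSRNOG00000010760, chr2:88351361-88366115, - strand), E2f6 (ENSRNOG00000004449, chr6:42092467-42108702, + strand) and E2f8 (ENSRNOG00000022537, chr1:104187100-104202591, - strand) were listed at 0 in all 6 libraries. Those of E2f7 (ENSRNOG00000026252, chr7:53275676-53316481, + strand) and Tfdp2 (ENSRNOG00000011241, chr8:104040934-104176446, + strand) held at most 3 counts in any library. E2f3 (ENSRNOG00000029273, chr17:36334147-36408831, + strand) held 15 to 31 counts on its annotated row.

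The counts of these 6 genes lay on unannotated rows instead. The unannotated row over E2f5 held 55 to 99 counts per library, that over E2f6 147 to 232, that over E2f7 88 to 141, that over E2f8 58 to 76, that over Tfdp2 184 to 272 and that over E2f3 312 to 411. Each unannotated row covered between 97.78% and 100% of the gene and overlapped no other annotated gene on the strand. Their exons were longer in total than those of the annotated gene by 262 bases for E2f6 to 5291 bases for Tfdp2. Unannotated rows held 93.8% of the counts of E2f3 and its unannotated row together, 99.3% for E2f7, 99.9% for Tfdp2 and 100% for E2f5, E2f6 and E2f8. For E2f3 this share was 94.7% ± 1.47 in si-NC and 93.0% ± 2.19 in si-DYRK1A (SD, n = 3 each), a difference within the spread of the libraries (exact permutation test, two-sided p = 0.2, where 0.1 is the smallest that 3 against 3 can give).

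A low count on an annotated row that an unannotated row overlaps does not show that the gene was silent. Among 7460 protein-coding genes overlapped by an unannotated row on their strand, 73.8% had at most 10 counts in every library, against 47.3% of 14790 that no unannotated row overlapped. For 903 genes whose span equals that of an unannotated row, both rows had at most 10 counts in every library in 57.6%. This share was 75.2% where the unannotated row was fewer than 250 exonic bases longer than the gene and 14.8% where it was at least 250 bases longer. The sources used here do not give how reads matching both rows were counted. The unannotated rows may hold mainly reads outside the annotated exons, and the sum of both rows, used below for the 6 genes, is the count that can be assigned to the locus and not the whole output of the gene. E2f4, the other repressive E2F that works with pocket proteins, could not be measured, since its annotated row held at most 2 counts and an unannotated row of the same span held 0 in every library.

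**Figure D1:**
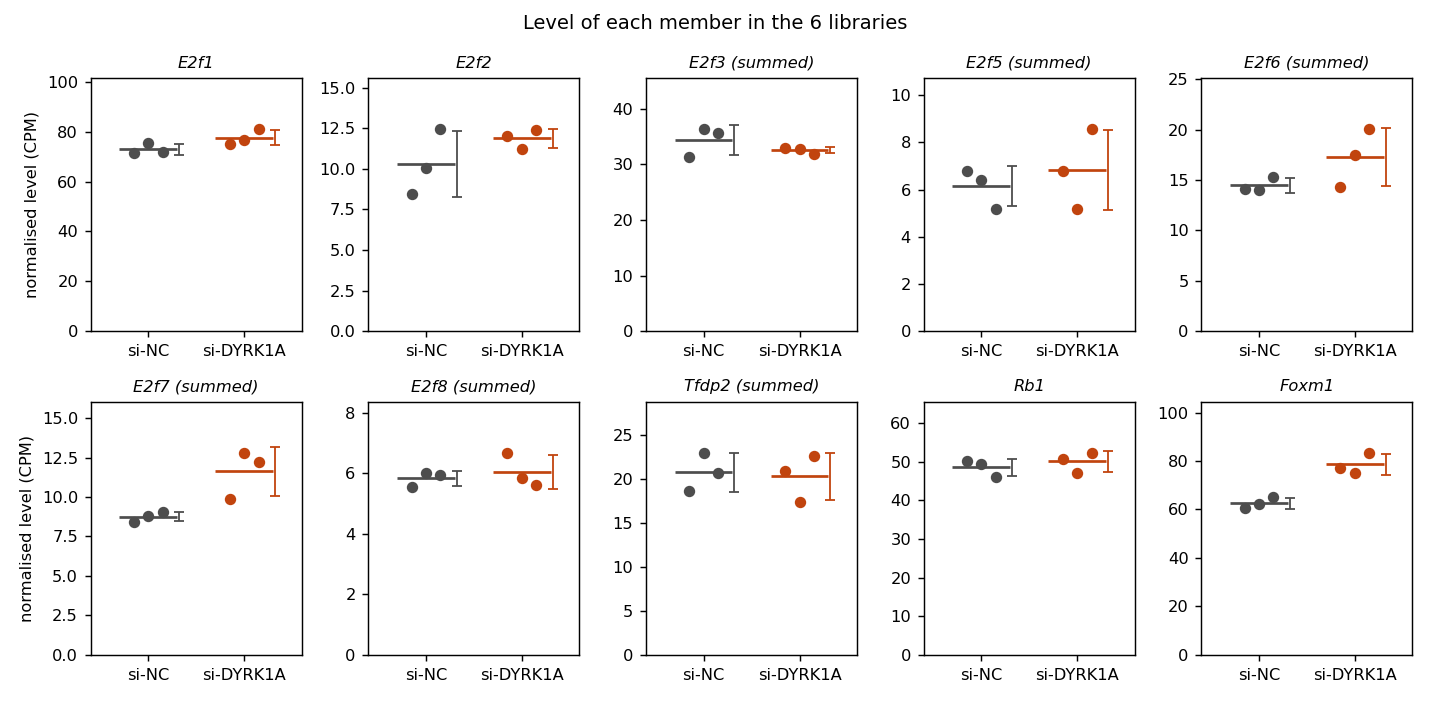
Normalised level (CPM, linear axes from 0) of the 10 genes in 3 si-NC and 3 si-DYRK1A libraries, with the group mean as a line and the SD as a bar. Genes marked as summed are the annotated row plus the unannotated row. Foxm1 and E2f7 are the genes whose groups do not overlap.

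Of the 10 genes, Foxm1 was the one with an adjusted p below 0.05, and it was higher in the libraries labelled si-DYRK1A. E2f7, summed with its unannotated row, lay just above the threshold (adjusted p = 0.0599). Of the 5 annotated rows tested, 1 was called higher and 0 lower, beside 8.03% and 7.19% of all rows. None of the 6 unannotated rows was called at an adjusted p below 0.05, while those of E2f6 and E2f7 had an unadjusted p below 0.05, as 27.4% of all rows did. With the 6 summed loci in the fit, 1 of the 10 genes was called, beside 15.2% of all rows. The log2 fold change was above 0 for 8 of the 10, and for 7817 of the 15513 rows in the fit without sums. The median log2 fold change of the 10 genes was 0.13, with a range of -0.08 to 0.41, against 0.002 for all rows of the fit with sums. Groups did not overlap, with si-DYRK1A higher, for 2 of the 10 genes, beside 16.2% of all rows.

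Foxm1, the activator of G2 and mitotic genes, was measured at 60.5, 62.3 and 65.1 CPM in si-NC and at 77.3, 75.2 and 83.4 CPM in si-DYRK1A. The lowest si-DYRK1A library lay above the highest si-NC library. The mean rose from 62.6 ± 2.29 to 78.7 ± 4.26 CPM (SD, n = 3 each), on 631 to 964 counts per library. This is a log2 fold change of 0.33 (SE 0.062, 95% confidence interval 0.20 to 0.46, adjusted p = 0.000784), a fold of 1.26 with an interval of 1.15 to 1.37. An exact permutation test of the log2 CPM gave p = 0.1, the smallest possible. On the per-length scale the level of Foxm1 rose from 18.2 ± 0.69 to 22.8 ± 1.22 FPKM (fragments scaled by gene length and library).

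Markers of some cell types also differed between the groups. Of all single rows tested, 31.5% had groups that did not overlap, in either direction. The summed level of the endothelial markers was 163 to 179 CPM in si-NC and 130 to 137 in si-DYRK1A. Of the 5 tested, 3 (Cdh5, Tek and Tie1) fell, beside 7.19% of all rows, while Kdr (log2 fold change -0.01) and Emcn (0.03) were not called. The summed cardiomyocyte markers ranged from 11207 to 11428 CPM in si-NC and from 12380 to 12813 in si-DYRK1A. Most of this sum was Actc1 (9976 ± 92.5 CPM in si-NC, SD, n = 3). Actc1 and Actn2 rose among 3 tested, beside 8.03% of all rows. The third, Tnnt2, had a log2 fold change of -0.14 (adjusted p = 0.595). The fibroblast markers ranged from 21531 to 26245 CPM and from 20368 to 21107. Col1a1, the most abundant of them, was measured at 14341 ± 1917 CPM in si-NC and 11113 ± 196 CPM in si-DYRK1A (SD, n = 3 each), with a log2 fold change of -0.37 that did not pass the test (adjusted p = 0.0869). Postn (1.10) and Lum (0.59) rose among the 6 fibroblast markers tested, beside 8.03% of all rows, with Pdgfra at no more than 10 counts per library. The smooth muscle markers (556 to 563 CPM against 545 to 569, with Myh11, Acta2 and Rgs5 at no more than 10 counts) and the macrophage markers (121 to 131 CPM against 112 to 124, with Cd68 and Cd14 at no more than 10 counts) overlapped between groups, and none of their tested genes was called. Their part in the result was not tested. In such bulk samples, fewer cells of a type and less RNA per cell cannot be told apart.

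The activators E2f1, E2f2 and E2f3 did not pass the test. E2f1 was measured at 71.5, 75.4 and 71.9 CPM in si-NC and at 75.1, 76.7 and 81.1 CPM in si-DYRK1A. The si-DYRK1A libraries lay high, but the lowest of them was below the highest si-NC library. E2f1 had a log2 fold change of 0.09 (SE 0.059, 95% confidence interval -0.03 to 0.21, adjusted p = 0.349). This interval allows at most a fold of 1.16. On the opposite strand E2f1 is overlapped by Actl10, with 7 to 30 counts per library, and by RGD1561517, with 3 to 12. As the use of strand in counting is not given, reads of the 2 strands cannot be told apart.

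E2f2 was the activator with the fewest counts, 88 to 149 per library. Its level was 8.44, 10.1 and 12.5 CPM in si-NC and 12.05, 11.2 and 12.4 CPM in si-DYRK1A. The highest si-NC library exceeded all 3 si-DYRK1A libraries. Its log2 fold change was 0.20 (SE 0.146, 95% confidence interval -0.10 to 0.50, adjusted p = 0.410), and it ranged from 0.08 to 0.35 when 1 library was left out.

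E2f3 and its unannotated row (chr17:36335804-36411700) together gave 31.4, 36.4 and 35.6 CPM in si-NC and 33.0, 32.8 and 31.9 CPM in si-DYRK1A. The si-DYRK1A libraries fell inside the si-NC range. The summed log2 fold change was -0.08 (SE 0.082, 95% confidence interval -0.25 to 0.09, adjusted p = 0.569). The annotated row alone gave 0.29 (SE 0.327, adjusted p = 0.626) at means of 1.85 ± 0.575 and 2.28 ± 0.740 CPM, and the unannotated row alone gave -0.11 (SE 0.084, adjusted p = 0.445). The 2 rows thus differed in sign, each within its error.

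All 4 repressors (E2f5, E2f6, E2f7 and E2f8) had higher means in si-DYRK1A, and none of them passed the test. The direction was not particular to repressors, as E2f1, E2f2, Rb1 and Foxm1 had higher means too. Of all 15513 rows tested, 7817 had a positive log2 fold change, and the signs of E2f5 and E2f8 turned without 1 library. E2f6, on its unannotated row at chr6:42092197-42108702, was measured at 14.1, 14.0 and 15.3 CPM in si-NC and at 14.3, 17.5 and 20.1 CPM in si-DYRK1A. Replicate 1 of si-DYRK1A lay within the si-NC range and replicates 2 and 3 lay above it. E2f6 had a log2 fold change of 0.26 (SE 0.123, 95% confidence interval 0.002 to 0.51, adjusted p = 0.178). E2f5, on its unannotated row at chr2:88350781-88366303, was measured at 6.81, 6.43 and 5.18 CPM in si-NC and at 6.77, 5.18 and 8.57 CPM in si-DYRK1A. Both the lowest and the highest library belonged to si-DYRK1A. E2f5 had a log2 fold change of 0.16 (SE 0.196, adjusted p = 0.653), and without si-DYRK1A replicate 3 it was -0.03.

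E2f7, with its unannotated row at chr7:53275684-53318283, summed to 8.44, 8.80 and 9.03 CPM in si-NC and to 9.85, 12.8 and 12.2 CPM in si-DYRK1A. Every si-DYRK1A library lay above every si-NC library, with replicate 1 nearest to them. The mean was 8.75 ± 0.298 CPM in si-NC and 11.6 ± 1.56 CPM in si-DYRK1A (SD, n = 3 each). The log2 fold change was 0.41 (SE 0.143, 95% confidence interval 0.11 to 0.70), with an unadjusted p of 0.0098 by edgeR and an adjusted p = 0.0599, above the threshold. Without si-DYRK1A replicate 1 the value was 0.51 and passed the test (adjusted p = 0.0293), while over all libraries left out in turn the adjusted p reached 0.232. The estimate for E2f7 was thus larger than that for Foxm1, on 88 to 141 counts per library and with an SE more than double in size (0.143 against 0.062).

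E2f8, the other atypical factor, was measured on its unannotated row at chr1:104186377-104204034 at 5.56, 6.004 and 5.94 CPM in si-NC and at 6.68, 5.84 and 5.63 CPM in si-DYRK1A. The groups overlapped, with si-DYRK1A replicate 1 the highest. The log2 fold change was 0.05 (SE 0.176, 95% confidence interval -0.31 to 0.42, adjusted p = 0.893), and -0.03 without that library.

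Tfdp2, the DP partner, summed to 18.6, 23.0 and 20.7 CPM in si-NC and to 20.9, 17.4 and 22.7 CPM in si-DYRK1A over the gene and its unannotated row at chr8:104040817-104181835. The ranges of the 2 groups overlapped almost entirely. The log2 fold change was -0.03 (SE 0.112, 95% confidence interval -0.26 to 0.20, adjusted p = 0.906), and the sign turned without si-NC replicate 2 (0.05) or without si-DYRK1A replicate 2 (0.07). SNORA44, a small nucleolar RNA on the opposite strand within Tfdp2, held 67 to 109 counts and was higher in si-DYRK1A (log2 fold change 0.52, adjusted p = 0.0331). Its reads and those of Tfdp2 cannot be told apart if strand was not used.

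Rb1, which holds the activator E2Fs in check, was measured at 50.1, 49.5 and 46.0 CPM in si-NC and at 50.7, 47.2 and 52.4 CPM in si-DYRK1A. The groups overlapped. The log2 fold change was 0.05 (SE 0.071, 95% confidence interval -0.10 to 0.20, adjusted p = 0.734), which allows a fold between 0.932 and 1.14. Lpar6 lies on the strand opposite to Rb1, with 208 to 335 counts per library and a log2 fold change of 0.11 (adjusted p = 0.569).

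**Figure D2:**
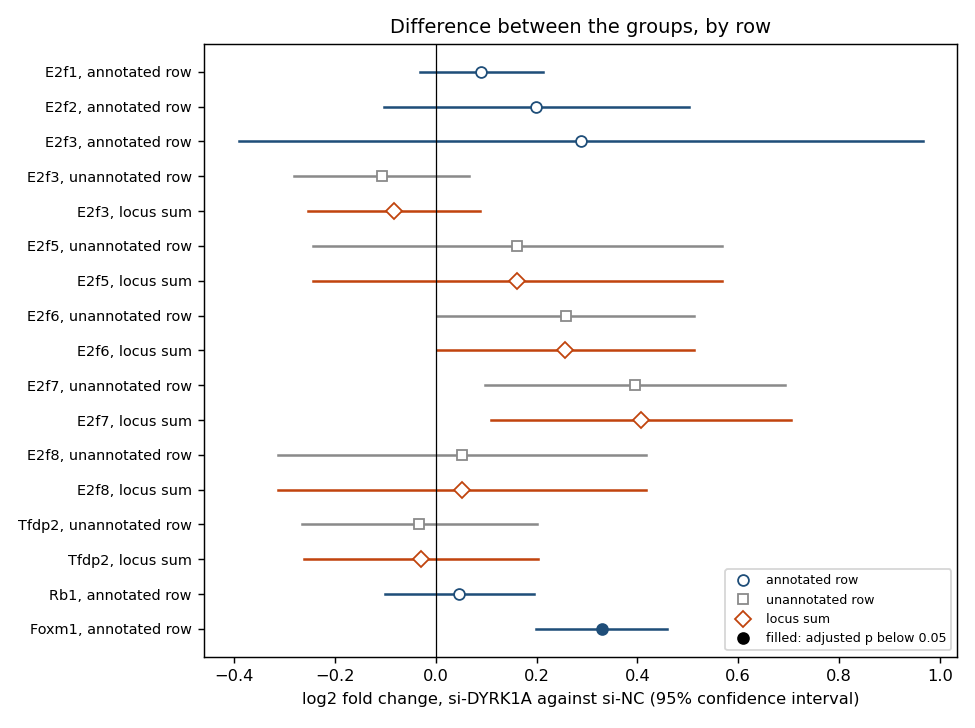
Log2 fold change of si-DYRK1A against si-NC with its 95% confidence interval for each tested row of the 10 genes, drawn separately for annotated rows, unannotated rows and their sums. The filled symbol, Foxm1 at 0.33, marks the row with an adjusted p below 0.05, and the widest interval is that of the annotated E2f3 row.

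Levels can be compared between genes only per length and only for the 4 genes without an unannotated row. In si-NC, Foxm1 stood highest at 18.2 ± 0.69 FPKM, followed by E2f1 at 16.1 ± 0.52, Rb1 at 15.4 ± 0.70 and E2f2 at 2.17 ± 0.429 (SD, n = 3). The ranges of E2f1 (15.7 to 16.7) and Rb1 (14.6 to 15.9) overlapped in si-NC, whereas Foxm1 (17.5 to 18.9) lay above both and E2f2 (1.77 to 2.62) below. In si-DYRK1A the same order held, with Foxm1 at 22.8 ± 1.22, E2f1 at 17.1 ± 0.67, Rb1 at 15.9 ± 0.83 and E2f2 at 2.49 ± 0.124 FPKM, and with overlapping ranges of E2f1 (16.5 to 17.8) and Rb1 (14.96 to 16.6). For the other 6 genes the FPKM of the 2 rows were added, which gave si-NC means of up to 7.77 for E2f3. These rest on different lengths and are not ranked.

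A ratio taken within a library does not depend on scaling, and the ratio of Foxm1 counts to those of each other gene was therefore added after the data had been seen. Foxm1 had 0.826 to 0.905 counts for each count of E2f1 in si-NC and 0.980 to 1.03 in si-DYRK1A. For Rb1 the ratio was 1.21 to 1.41 against 1.52 to 1.59, for the E2f3 locus 1.71 to 1.93 against 2.30 to 2.61, for the Tfdp2 locus 2.71 to 3.25 against 3.68 to 4.32, and for the E2f8 locus 10.38 to 10.96 against 11.57 to 14.83. In these 5 of 9 ratios the groups did not overlap, beside 51.5% of the ratios of Foxm1 to every other row tested. Foxm1 was set as the numerator because it was the gene called, so the ratios restate that difference and add no separate evidence. Each gave p = 0.1 in an exact two-sided permutation test, the smallest possible, and 0.18 after Benjamini-Hochberg adjustment over the 9 ratios. The log2 difference was 0.24 against E2f1, 0.28 against Rb1 and E2f8, 0.36 against Tfdp2 and 0.41 against E2f3. The ratios to E2f2, E2f5, E2f6 and E2f7 overlapped between groups, with log2 differences of 0.11, 0.19, 0.08 and -0.07. The 9 ratios share the Foxm1 counts and are not independent of each other.

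**Figure D3:**
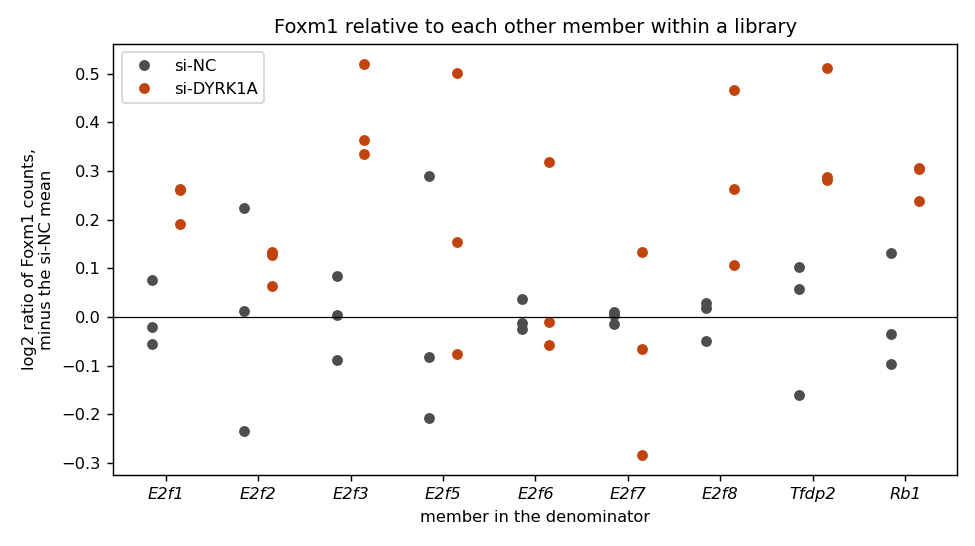
Log2 ratio of Foxm1 counts to the counts of each other gene within a library, minus the mean of the si-NC libraries, for 3 si-NC and 3 si-DYRK1A libraries. The 3 si-DYRK1A points lie above the 3 si-NC points for E2f1, E2f3, E2f8, Tfdp2 and Rb1, and the groups overlap for E2f2, E2f5, E2f6 and E2f7.

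Many genes that E2F factors are known to activate were higher in si-DYRK1A. Of a list of 50 such genes of DNA replication, repair and chromatin assembly, 35 annotated rows were tested. Of these, 20 rose (57.1%, beside 8.03% of all rows), 0 fell, and 33 had a positive log2 fold change, with a median of 0.27. The list was chosen with earlier results of these data known, so this share adds no separate evidence. Mcm3 and Mcm5, subunits of the replicative helicase, rose from 167 ± 5.97 to 212 ± 11.2 CPM and from 81.4 ± 1.63 to 104 ± 1.57 CPM, by 0.35 (SE 0.050, adjusted p = 3.31e-05) and 0.36 (SE 0.052, adjusted p = 4.57e-05) on the log2 scale. Rfc3, a subunit of the clamp loader, rose from 60.4 ± 3.61 to 80.8 ± 1.58 CPM, by 0.42 (SE 0.062, adjusted p = 5.45e-05). The other genes that rose were Mcm4, Mcm6, Mcm10, Cdt1, Gins1, Pcna, Rfc5, Pola1, Pole, Rpa2, Rrm1, Tyms, Tk1, Chaf1a, Asf1b, Brca1 and Nasp, and the 20 log2 fold changes lay between 0.16 and 0.43. With unannotated rows added, 39 genes of the list were tested, 21 rose and 0 fell. Either E2F motif was found in 18 of the 46 promoters of this list in the RefSeq table (39.1%), beside 5% of all promoters. Among 40 promoters of the FOXM1 targets described next, 4 held either motif (10%).

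Genes known as FOXM1 targets moved in the same direction as Foxm1. Of 46 genes of G2, mitosis and cytokinesis, none of them shared with the list above, 25 annotated rows were tested, 20 rose (80%, beside 8.03% of all rows) and 0 fell. The median log2 fold change was 0.36. These genes too were chosen with earlier results of these data known. Cdc20, an activator of the anaphase-promoting complex, rose from 132 ± 3.69 to 179 ± 1.29 CPM, by 0.44 on the log2 scale (SE 0.047, adjusted p = 8.01e-07). Kif20a, a kinesin of cytokinesis, rose from 124 ± 8.60 to 172 ± 5.99 CPM, by 0.48 (SE 0.054, adjusted p = 1.73e-06), and Plk4, the kinase that starts centriole duplication, from 58.5 ± 2.59 to 86.6 ± 7.63 CPM, by 0.57 (SE 0.068, adjusted p = 4.35e-06). The other 17 were Ccnb1, Ccna2, Cdk1, Plk1, Aurkb, Nek2, Birc5, Incenp, Cenpa, Kif11, Top2a, Ube2c, Ect2, Racgap1, Aspm, Hmmr and Cks2. Cks1b (-0.48) and Cenpn (-0.31), each with at most 24 counts in any library, had a negative log2 fold change and did not pass the test. With unannotated rows added, 32 genes were tested, 24 rose and 0 fell, with a median of 0.39. Of the marker sums given beside Foxm1, those of cardiomyocytes were higher in si-DYRK1A, as both lists were. Those of endothelial cells and fibroblasts were lower, and those of smooth muscle and macrophages overlapped between groups. Of the 6 fibroblast markers tested, 5 had a positive log2 fold change, and Col1a1, the most abundant, had a negative one. The part of these markers in the results of both lists was not tested.

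Genes acting upstream of RB1 and FOXM1 were examined next. Of 15 cyclins, kinases and inhibitors that set the phosphorylation of RB1, 5 annotated rows were tested and 0 were called, beside 15.2% of all rows, with a median log2 fold change of 0.07. So few rows show nothing particular to this list. The cyclin Ccnd3 was measured at 363 ± 31.2 CPM in si-NC and 325 ± 18.0 in si-DYRK1A, with a log2 fold change of -0.16 (SE 0.058, adjusted p = 0.0872). This value passed the threshold with library size only as scaling (adjusted p = 0.0495) and with no filter on low counts (0.00582). The kinases Cdk2 and Cdk4 had log2 fold changes of 0.11 (adjusted p = 0.189) and 0.07 (adjusted p = 0.327), and the inhibitor gene Cdkn2a had 0.61 (adjusted p = 0.190), or 0.86 without si-DYRK1A replicate 1 (adjusted p = 0.0477). With unannotated rows added 8 genes were tested and 1 rose (12.5%, beside 8.03% of all rows), Cdkn1b, which encodes the inhibitor p27, at a log2 fold change of 0.34 (SE 0.103, adjusted p = 0.0288). Its annotated row was listed at 0 in every library. 

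Of 5 genes known to act on FOXM1 or its activity, 5 were tested and 0 were called, beside 15.2% of all rows, a count too small to set this list apart. Fzr1, an activator of the ubiquitin ligase that degrades FOXM1, had a log2 fold change of 0.16 (adjusted p = 0.0604) and passed the threshold without si-NC replicate 2 (adjusted p = 0.0419) or without si-DYRK1A replicate 1 (0.029). The forkhead factor Foxo3 had -0.06 (adjusted p = 0.590). Of 11 genes of other pocket proteins and of the DREAM complex, Tfdp1, the DP protein related to Tfdp2, was the single annotated row tested. It rose from 175 ± 6.26 to 197 ± 4.89 CPM, by 0.17 on the log2 scale (SE 0.047, adjusted p = 0.013), and did not pass the threshold without si-NC replicate 1 (adjusted p = 0.0919), si-DYRK1A replicate 2 (0.0664) or si-DYRK1A replicate 3 (0.0694), nor in the 3 limma fits on FPKM (0.064 to 0.0998). Of the 124 listed genes found by symbol, 51 had at most 10 counts in every library, and all 51 were overlapped by an unannotated row on their strand, which for 44 of them overlapped no other annotated gene there.

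**Figure D4:**
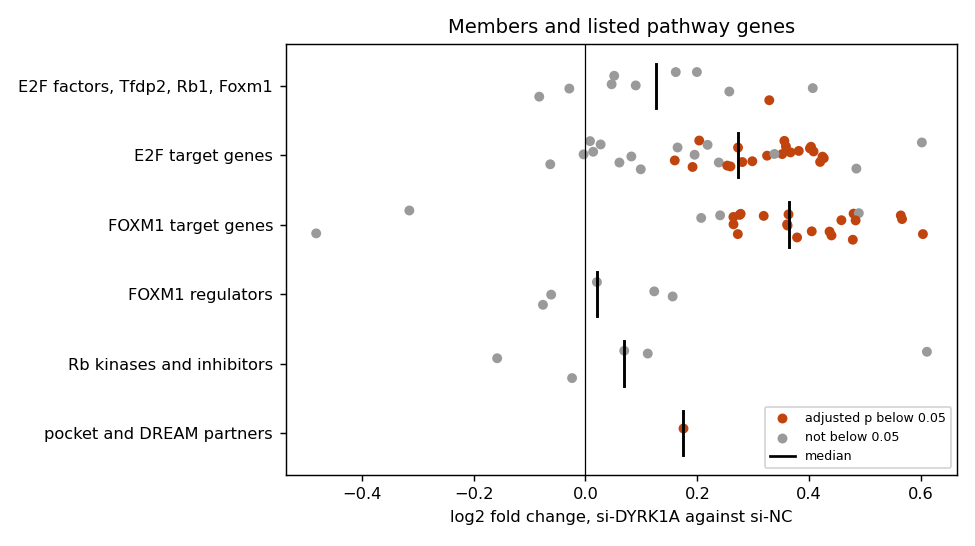
Log2 fold change of si-DYRK1A against si-NC for the 10 genes (annotated row, or sum with the unannotated row) and for the tested annotated rows of 5 lists, with the median as a bar. Vertical offsets within a list only separate points. Coloured points have an adjusted p below 0.05, and they lie to the right of 0 in both lists of targets.

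Foxm1 kept its call in all 18 alternatives tried, with log2 fold changes between 0.28 and 0.36 and adjusted p between 2.9e-05 and 0.0465. The highest adjusted p came from limma on log2(FPKM + 1) without a filter. The log2 fold changes of E2f1 (0.06 to 0.11), E2f2, E2f3 summed (-0.15 to -0.04), E2f6 summed (0.14 to 0.38), E2f7 summed (0.33 to 0.51) and Rb1 (0.002 to 0.09) kept their sign in all alternatives run, whereas those of E2f5, E2f8 and Tfdp2 did not.

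**Figure D5:**
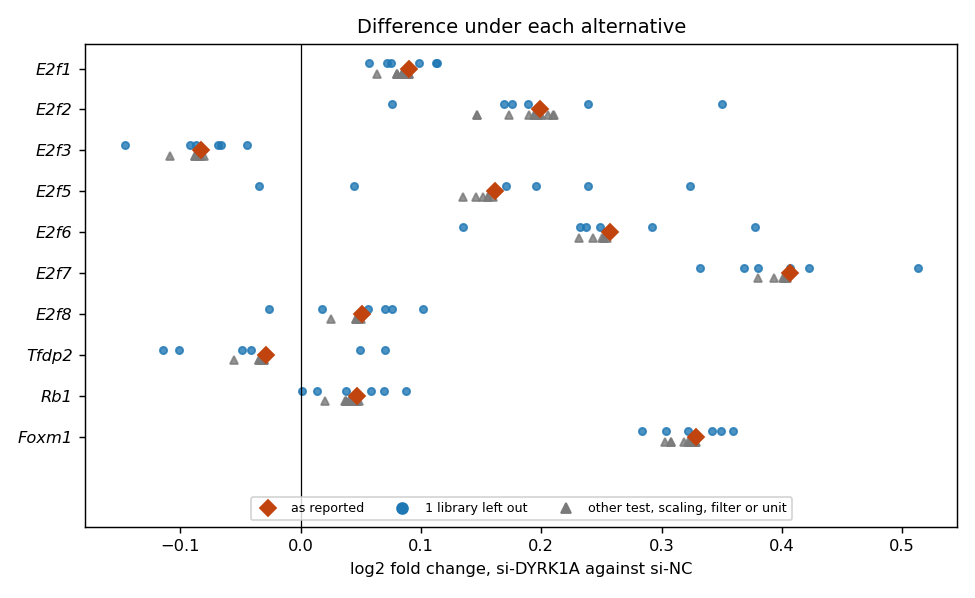
Log2 fold change of si-DYRK1A against si-NC for each of the 10 genes as reported (diamond), with 1 library left out (circles) and under another test, scaling, filter or unit (triangles). Foxm1 ranges from 0.28 to 0.36, and points of E2f5, E2f8 and Tfdp2 lie on both sides of 0.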

How the data were processed

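The members, the lists of related genes and the tests were chosen with earlier results of these data known. Per the labels and the study's methods, mRNA of the 6 libraries was sequenced as paired ends. The labels name a TruSeq kit, the methods another one. The methods give HISAT2 and Rnor_6.0, which match the rat gene identifiers, while the submitters' processing notes list Bowtie 0.12.2 and mm8. The authors deposited raw counts per gene, and FPKM values that equal counts divided by gene length and by 1 constant per library. The sources used here do not give the counting tool, the annotation release or whether strand was used. Every column matched a sample, with 0 left over.

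Counts were tested with edgeR 4.0.16 in R 4.3.3 (quasi-likelihood, robust, TMM, filterByExpr with a minimum count of 10 and total of 15), adjusted over all rows tested at a threshold of 0.05. A second fit replaced each gene and its unannotated rows by their sum. CPM are from TMM library sizes. Log2(FPKM + 1) or log2(FPKM + 0.1), for rows above 0.5 in at least 3 libraries, was tested with limma 3.58.1. DESeq2 1.42.0, limma-voom, other scalings and filters, annotated genes only, a replicate block, leaving out each library and a threshold of 0.01 were the other alternatives. Single values were tested by exact permutation. The genes named were all members and their unannotated rows, Dyrk1a, the 3 genes with the smallest p of each list, called genes of the 2 lists around RB1 and calls against a list's direction. A single gene that this rule names is not reported here. Other genes of lists and alternatives were named after their values were seen. Counts of this comparison were simulated 3 times, with 15223 genes and 200 of the rows changed. In these, edgeR recovered 71.9% of genes changed by 1 and 39.8% of those changed by 0.5 on the log2 scale, and 10.2% of its calls were false. The share changed was set below the 15.2% called in the data, so these rates need not hold for the data.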

Additional observations from a re-analysis of the deposited data

How the results depend on the processing

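Of the 10 genes, 1 was called under every test, scaling, filter, unit and threshold run, and it was Foxm1 each time. In the fit as reported, 15.2% of all rows were called. Among the sums with unannotated rows the number called was 1 to 2 when 1 library was left out, the second being E2f7 without si-DYRK1A replicate 1. Signs turned for E2f5 without si-DYRK1A replicate 3 (unannotated row -0.034, sum -0.034, both 0.32 at the highest without 1 library), for E2f8 without si-DYRK1A replicate 1 (-0.027 and -0.026, both 0.10 at the highest) and for Tfdp2 without si-NC replicate 2 (0.045 and 0.049) or si-DYRK1A replicate 2 (0.067 and 0.070, with -0.12 and -0.11 at the lowest). The difference in the unannotated share of E2f3 ranged from -2.84 to -0.69 percentage points when 1 library was left out. Over all rows, 2360 calls became 1571 with DESeq2, 1197 with log2(FPKM + 1), 1162 with log2(FPKM + 0.1), 667 with log2(FPKM + 1) and no filter, 1307 at the threshold of 0.01, and 1614 to 2210 without 1 library. The cause was not tested. With library size only, 1063 rows were higher and 1339 lower, against 1245 and 1115, and the median over all rows was -0.02. Of the E2F targets, 13 were higher with log2(FPKM + 1) and no filter and 17 to 19 without 1 library, and their median was 0.24 to 0.28. The median of the FOXM1 targets was 0.26 with log2(FPKM + 1) and no filter. Among the kinases and inhibitors of RB1, 0 to 1 were higher without 1 library and 1 when summed with unannotated rows, and the median was 0.0019 with log2(FPKM + 1) and no filter. Among the FOXM1 regulators, 0 to 1 were higher without 1 library. In the list of pocket protein and DREAM genes, 0 to 1 were higher without 1 library and 0 in the 3 fits on FPKM, and its median was 0.90 with no filter, 0.11 with log2(FPKM + 1) and no filter and 0.076 when summed. Replicate numbers did not pair the samples. Same-numbered libraries had correlations of 0.07, -0.02 and -0.01 between their deviations from the group means, and 2 of 6 libraries correlated best with their own number. With the replicate block, 2269 rows were called and the calls of the 10 genes did not change. Ccnd3 (adjusted p = 0.0437) and Col1a1 (0.00353) then passed the threshold, and Actc1 (0.0604) no longer did. No unannotated row of the 10 genes overlapped another annotated gene on its strand, so the planned sum with such rows was not run. Among the sums and annotated rows used for the 10 genes, the SE of the log2 fold change was largest for E2f5 (0.196, 55 to 99 counts per library). It was next largest for E2f8 (0.176, 58 to 76 counts). These 2 genes had the fewest counts, and the part of depth in their SE was not tested.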
